A study of Mus musculus with 24 samples.

Results

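The 10 genes described here mark hepatic stellate cells, the vitamin A-storing cells of the liver sinusoid. They are Lrat, Reln, Des, Hand2, Ngfr, Pdgfra, Pdgfrb, Acta2, Tagln and Rgs5, found by gene symbol among the 41388 genes of the count files, with the collagens left out. All 10 passed the limit on low counts and were among the 13052 genes tested. The study asked how loss of lipin 1, a phosphatidic acid phosphatase encoded by Lpin1, from adipocytes alters metabolism in the rest of the body, and sequenced RNA of whole liver.

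The livers came from male C57BL/6J mice that were 8 weeks old when the diets began, in 4 groups of 5 mice. WT mice were littermates with homozygous floxed Lpin1 and no Cre. Adn-Lpin1-/- mice carried the same floxed alleles with Cre driven by the adiponectin promoter, so the deletion is expected in adipocytes and not in liver cells. Each genotype was fed a low-fat diet (LFD, 10% of energy from fat) or a high-fat diet (HFD, 60%). The labels give 16 weeks of diet, whereas the study's methods give a shorter feeding period for mice on these diets. Each group also had 1 library labelled as a pool of its mice 1 to 5, which was kept out of the tests. Total counts per mouse ran from 36260187 to 45999456 in WT LFD, 51095146 to 61435897 in Adn-Lpin1-/- LFD, 54036184 to 62249701 in WT HFD and 57550362 to 81072794 in Adn-Lpin1-/- HFD, so depth did not overlap between the genotypes on the LFD. Lpin1 itself, which the liver also expresses, had group means of 358 ± 208 (WT) and 614 ± 339 (Adn-Lpin1-/-) CPM on the LFD (SD, n = 5 mice; CPM is the count scaled to a common library total), and of 274 ± 168 (WT) and 331 ± 216 (Adn-Lpin1-/-) CPM on the HFD. These values do not check the genotype labels, because the deletion lies in another tissue.

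In a healthy liver, stellate cells lie between hepatocytes and the sinusoidal endothelium and hold retinyl esters in lipid droplets. After injury they lose these droplets, multiply in response to platelet-derived growth factor, take on contractile proteins and deposit collagen, a state called activation. Lrat, which esterifies retinol, and Reln, which encodes a secreted glycoprotein, are used as markers of the resting cell, and Acta2, which encodes smooth muscle actin, is the classical marker of the activated cell. Several of the 10 genes are not particular to stellate cells. Acta2 and Tagln are also abundant in vascular smooth muscle, Rgs5 and Pdgfrb in pericytes, and Pdgfra in portal fibroblasts. In bulk liver RNA, more stellate cells and more RNA per stellate cell cannot be told apart.

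Acta2 is the marker with the largest change between genotypes, and the stretch ahead of its start is shown because its class of promoter is known to bind serum response factor at CArG boxes. A CArG box was searched as CC, then 6 bases that are A or T, then GG, a pattern that reads the same on both strands. Promoter sequences were taken from RefSeq (GRCm38.p6) for the 8 markers that matched an entry, and the 250 bases before each start were read. Tagln and Pdgfrb matched no entry, so whether they carry a box was not searched. The exact box was in 1.47% of 32851 promoters and in none of the 8 markers. With at most 1 of the 6 inner bases C or G, the box was in 8.59% of promoters and in 2 of the 8 markers, Acta2 and Lrat. Acta2 held 2 such matches, which begin 84 and 34 bases before the start, and Lrat held 1, which begins 223 bases before it. The region of Acta2 is chr19:34255374-34255623 and that of Lrat chr3:82903975-82904224, both on the minus strand. Both are printed 5′ to 3′ with the matches in capitals. A match here is a description of letters, not a binding site.
Acta2: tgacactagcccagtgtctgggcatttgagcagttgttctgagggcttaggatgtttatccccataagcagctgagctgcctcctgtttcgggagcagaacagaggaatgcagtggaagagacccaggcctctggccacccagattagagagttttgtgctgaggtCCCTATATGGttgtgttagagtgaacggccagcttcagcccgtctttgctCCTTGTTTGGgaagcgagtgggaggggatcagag
Lrat: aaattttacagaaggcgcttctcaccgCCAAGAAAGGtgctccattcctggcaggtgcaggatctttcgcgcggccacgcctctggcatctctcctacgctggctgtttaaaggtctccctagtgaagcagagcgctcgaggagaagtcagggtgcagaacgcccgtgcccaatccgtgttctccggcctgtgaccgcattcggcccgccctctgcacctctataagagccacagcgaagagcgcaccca

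Levels can be compared between markers only per length, here as CPM divided by the length of all exons of the gene in kilobases (RPKM). This length can exceed that of a transcript, so the order below depends on it. For Reln it is 19834 bases, against 11699 in the longest transcript, so Reln would stand higher by transcript length. In WT LFD, Rgs5, which encodes a regulator of G protein signalling, had the highest mean level (4.26 ± 1.86 RPKM, SD, n = 5), followed by Tagln, which encodes the actin-binding protein transgelin (3.84 ± 1.04). Lrat was at 1.91 ± 0.566, Hand2, a transcription factor of the stellate lineage, at 1.62 ± 0.432, Reln at 1.48 ± 0.291 and Pdgfrb at 1.24 ± 0.329. Des, which encodes the filament protein desmin, was at 1.10 ± 0.342 and Ngfr, the low-affinity neurotrophin receptor, at 1.05 ± 0.329. Acta2 (0.526 ± 0.314) and Pdgfra (0.496 ± 0.124) were lowest. Each neighbouring pair in this order overlapped between mice except Tagln and Lrat. In Adn-Lpin1-/- LFD the order began with Tagln (6.36 ± 0.786), then Rgs5 (4.40 ± 1.28), and every neighbouring pair overlapped. In WT HFD, Rgs5 and Tagln, Tagln and Reln, and Des and Acta2 were the neighbouring pairs that did not overlap, and in Adn-Lpin1-/- HFD only Des and Pdgfra. The other markers lie on chromosomes 3 (Lrat, 82892579 to 82903973), 5 (Reln, 21884454 to 22344702, and Pdgfra, 75152291 to 75198204), 1 (Des, 75360329 to 75368579, and Rgs5, 169655501 to 169695813), 8 (Hand2, 57320983 to 57324517) and 11 (Ngfr, 95568818 to 95587735) of GRCm38. Genes on the opposite strand overlap Lrat, Reln, Des, Hand2, Pdgfra and Tagln in the annotation, and genes on the same strand overlap Reln and Pdgfra. Only unambiguous reads were counted, per the study's methods, but how the counting treated strand is not given in the sources used here. Whether reads of the opposite-strand overlaps were counted or left out is therefore not known. Whether the same-strand overlaps cost Reln or Pdgfra reads was not tested. Of the 50-base words of the Acta2 transcript, 0.352% also occur in another gene, among them the actin gene Actg1. Acta2 had the fewest reads of the markers in each WT mouse. Its reads ran from 16 in a WT LFD mouse to 437 in an Adn-Lpin1-/- HFD mouse, in which Hand2 (389) and Pdgfra (393) had fewer.

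**Figure D1:**
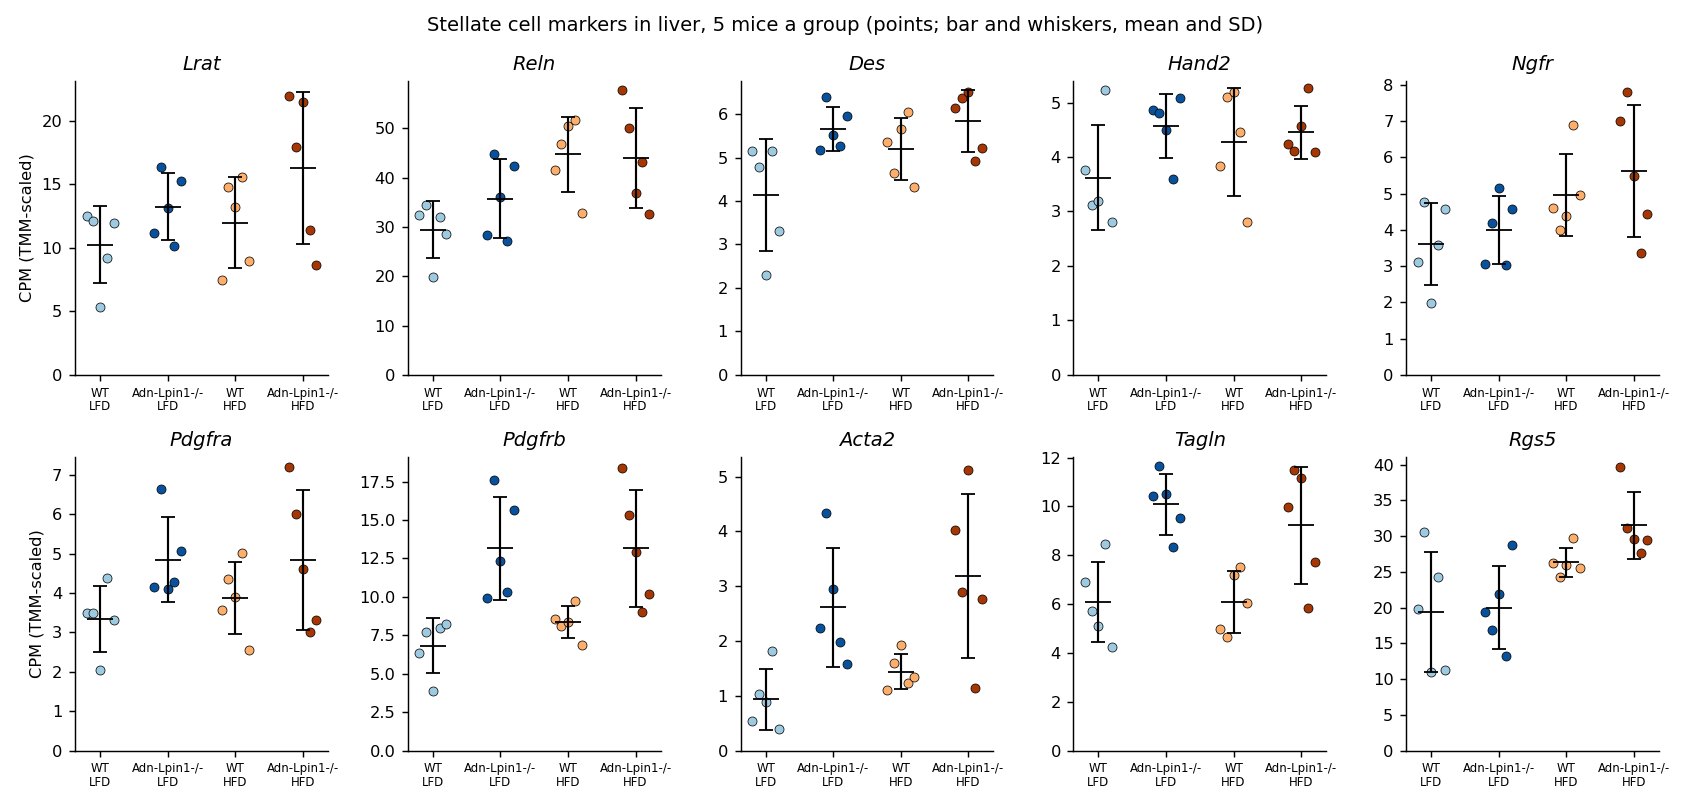
CPM of each marker (vertical axes, scaled by the trimmed mean of M values, TMM) in the 4 groups (horizontal axes), with 1 point a mouse and the mean and SD of 5 mice as bar and whiskers. Pdgfrb on the LFD is the clearest separation, with every Adn-Lpin1-/- mouse (9.91 to 17.6 CPM) above every WT mouse (3.87 to 8.21).

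The first comparison set Adn-Lpin1-/- against WT on the LFD. Pdgfrb, Acta2 and Tagln rose in Adn-Lpin1-/- livers, by 1.93-fold, 2.79-fold and 1.66-fold. Thus 3 of 10 markers rose and none fell at an adjusted p of 0.05 or less (edgeR quasi-likelihood test, Benjamini-Hochberg adjustment over 13052 genes), where 6.27% of all genes tested were called higher. The median log2 fold change of the 10 markers was 0.41, against 0.0065 over all genes tested. All 10 estimates were above 0, and 7 did not pass the test.

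Pdgfrb (ENSMUSG00000024620) encodes the receptor through which platelet-derived growth factor B drives stellate cell growth. In the 5 WT LFD mice it was at 6.33, 7.69, 3.87, 7.97 and 8.21 CPM, and in the 5 Adn-Lpin1-/- LFD mice at 9.91, 17.6, 12.4, 10.3 and 15.6 CPM. The groups did not overlap. Mouse 3 was the low WT animal and mouse 2 the high Adn-Lpin1-/- animal. The log2 fold change was 0.95 ± 0.21 (SE), with an adjusted p of 0.00578.

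Acta2 (ENSMUSG00000035783, chromosome 19, 34241090 to 34255336, minus strand, GRCm38) is the gene whose promoter carries the 2 CArG-like matches shown above. WT LFD mice were at 0.540, 1.03, 0.893, 1.82 and 0.394 CPM and Adn-Lpin1-/- LFD mice at 2.23, 4.34, 2.95, 1.98 and 1.57 CPM. In words, 4 of the 5 Adn-Lpin1-/- mice exceeded every WT mouse, and the fifth, mouse 5, fell below WT mouse 4. The log2 fold change was 1.48 ± 0.39 (adjusted p = 0.0162). Without Adn-Lpin1-/- LFD mouse 2 it was 1.22 and no longer passed (adjusted p = 0.0550).

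Tagln (ENSMUSG00000032085, chromosome 9, 45929628 to 45936058, minus strand) encodes transgelin and is overlapped by Pcsk7 on the opposite strand. WT LFD mice were at 6.90, 5.71, 5.12, 8.47 and 4.24 CPM and Adn-Lpin1-/- LFD mice at 10.4, 11.7, 10.5, 8.32 and 9.52 CPM. The groups met only where Adn-Lpin1-/- mouse 4 lay just under WT mouse 4. The log2 fold change was 0.73 ± 0.19 (adjusted p = 0.0169), and 0.67 without WT LFD mouse 3, when it did not pass (adjusted p = 0.0509).

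Des was the other marker whose groups did not overlap on the LFD. WT LFD mice were at 5.15, 4.79, 2.29, 5.16 and 3.30 CPM and Adn-Lpin1-/- LFD mice at 5.17, 6.40, 5.52, 5.27 and 5.95 CPM. The nearest mice of the 2 groups were almost equal, and the change of 0.45 ± 0.17 on the log2 scale did not pass (adjusted p = 0.0851). Every Adn-Lpin1-/- mouse lay above every WT mouse for 2 of the 10 markers, Pdgfrb and Des, and for 3.89% of all genes tested.

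The markers of the resting cell did not pass on the LFD. Lrat was at a mean of 10.2 ± 3.03 CPM in WT and 13.2 ± 2.63 CPM in Adn-Lpin1-/- mice (log2 fold change 0.37 ± 0.27, adjusted p = 0.383). Reln was at 29.4 ± 5.77 and 35.8 ± 7.97 CPM (0.28 ± 0.18, adjusted p = 0.315). In WT LFD mouse 3, which had the smallest library, 7 of the 10 markers were at their lowest of the group. Among the lists of other cells read below, this mouse also had the lowest sinusoidal endothelial (135 CPM), Kupffer cell (90.4) and pericyte (21.3) sums of its group. Its portal fibroblast (9.38) and mesothelial (0.774) sums were lowest too, while its cholangiocyte sum (10.2) was the highest. The receptor Pdgfra, at 3.34 ± 0.833 and 4.85 ± 1.07 CPM, had a log2 fold change of 0.53 ± 0.24 (adjusted p = 0.148). Hand2 (0.33 ± 0.17), Ngfr (0.14 ± 0.25) and Rgs5 (0.05 ± 0.23) had the other estimates. Summed over the 10 markers, the level was 87.6 ± 20.99 CPM in WT LFD and 114 ± 20.8 CPM in Adn-Lpin1-/- LFD, with Reln the largest term by CPM, which is not scaled to length.

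**Figure D2:**
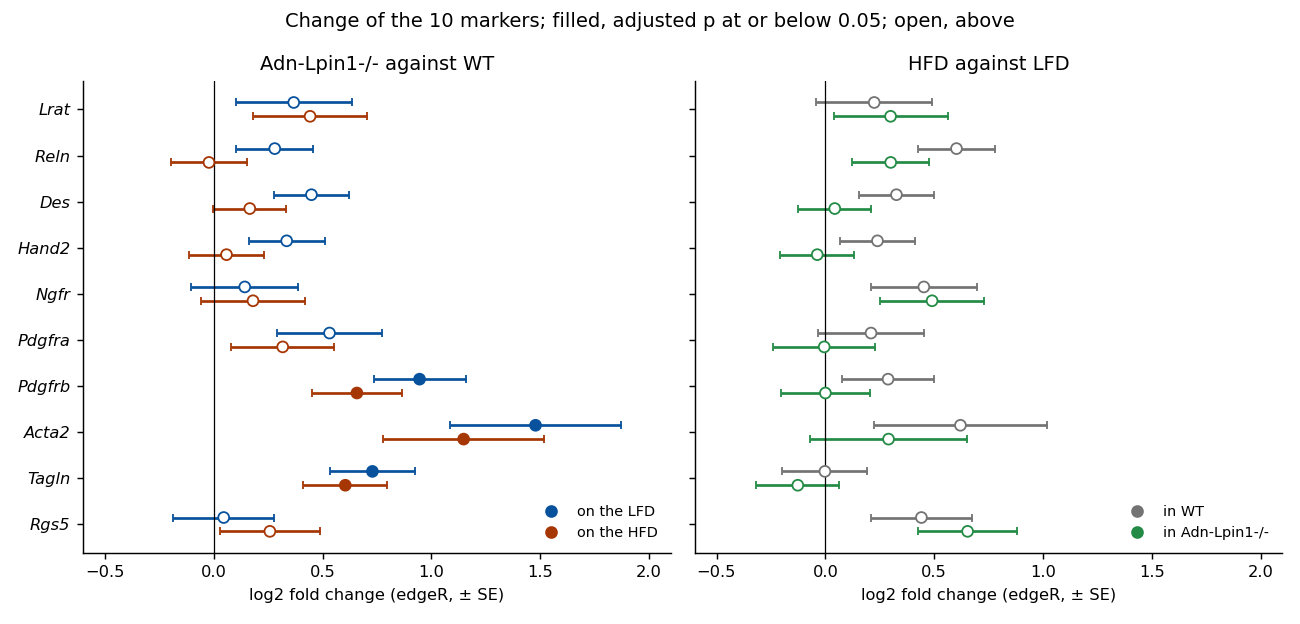
Log2 fold change with its SE (horizontal axis) of each marker between genotypes on each diet (left) and between diets in each genotype (right), from edgeR with 5 mice a group; filled points passed an adjusted p of 0.05. Only Pdgfrb, Acta2 and Tagln are filled, on both diets, and no marker is filled in the diet comparison.

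On the HFD, Pdgfrb, Acta2 and Tagln were again higher in Adn-Lpin1-/- livers, by 1.58-fold, 2.22-fold and 1.52-fold. They were the 3 of 10 markers that rose, and none fell, where 9.87% of all genes tested were called higher. The median log2 fold change of the markers was 0.29, against 0.0023 over all genes tested. No marker had every Adn-Lpin1-/- mouse above every WT mouse, a pattern seen in 5.78% of genes tested.

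For Pdgfrb, WT HFD mice were at 8.59, 8.14, 8.39, 9.76 and 6.85 CPM and Adn-Lpin1-/- HFD mice at 18.4, 15.3, 12.9, 9.04 and 10.2 CPM (log2 fold change 0.66 ± 0.21, adjusted p = 0.0336). For Acta2, WT HFD mice were at 1.11, 1.60, 1.92, 1.23 and 1.34 CPM and Adn-Lpin1-/- HFD mice at 4.02, 2.89, 5.12, 1.14 and 2.77 CPM (1.15 ± 0.37, adjusted p = 0.0370). For Tagln, WT HFD mice were at 5.00, 4.66, 7.18, 7.53 and 6.04 CPM and Adn-Lpin1-/- HFD mice at 9.97, 11.5, 11.2, 5.85 and 7.72 CPM (0.60 ± 0.19, adjusted p = 0.0347). In all 3 genes, 4 of 5 Adn-Lpin1-/- mice exceeded every WT mouse, and mouse 4 was the animal that lay within the WT range. Without that mouse the 3 log2 fold changes were 0.75, 1.35 and 0.72 and all 3 still passed.

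The HFD calls depended on single mice and on the fit. Pdgfrb did not pass after removal of a GC and length trend (adjusted p = 0.0766), and Tagln did not pass when only the 2 groups were fitted (adjusted p = 0.0592) or after thinning to the smallest library (adjusted p = 0.0613). With the replicate number as a block in edgeR, neither Pdgfrb (adjusted p = 0.0543) nor Tagln (adjusted p = 0.0587) passed. Without WT HFD mouse 1, 2 or 5, or without Adn-Lpin1-/- HFD mouse 1, 2 or 3, none of the 3 genes passed, with adjusted p from 0.0505 to 0.102 for Pdgfrb, 0.0593 to 0.107 for Acta2 and 0.0669 to 0.0987 for Tagln. Pdgfrb also failed without WT HFD mouse 3 (adjusted p = 0.0612) and Acta2 without WT HFD mouse 4 (adjusted p = 0.0726). The fold changes stayed above 0 in every case.

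The other 7 markers did not pass on the HFD. Lrat was at 12.0 ± 3.59 CPM in WT and 16.3 ± 5.99 CPM in Adn-Lpin1-/- mice (log2 fold change 0.44 ± 0.26, adjusted p = 0.251). Its Adn-Lpin1-/- values were spread over 8.65 to 21.96 CPM, with 3 mice above all WT mice and 2 within their range. Reln was level between the genotype means, at 44.7 ± 7.67 and 44.0 ± 10.1 CPM (-0.02 ± 0.18), and the estimates of the remaining 5 lay between 0.06 for Hand2 and 0.32 for Pdgfra. The 10 markers summed to 117 ± 16.2 CPM in WT HFD and 138 ± 27.9 CPM in Adn-Lpin1-/- HFD.

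The size of the genotype effect was then compared between diets. For all 3 genes that rose, the estimate was smaller on the HFD, yet 0 of 10 markers differed in the interaction of genotype and diet (edgeR). The interaction called 0% of all genes tested. None of the markers reached an unadjusted p under 0.05 there, and the DESeq2 Wald test and limma voom also called 0. Estimates of the difference ran from -0.33 to 0.21 on the log2 scale.

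The diet itself called no marker in either genotype. In WT mice, 0 of 10 markers passed, where 1.10% of all genes tested were called in either direction. The median log2 fold change of the 10 markers was 0.31, against 0.0028 over all genes tested, and 9 estimates were above 0. Reln was the 1 marker with an unadjusted p under 0.05. WT LFD mice were at 32.4, 34.4, 19.8, 32.0 and 28.6 CPM and WT HFD mice at 41.6, 46.9, 50.5, 51.7 and 32.9 CPM. Thus 4 of 5 HFD mice exceeded every LFD mouse (log2 fold change 0.60 ± 0.18, adjusted p = 0.102). Reln did pass with the DESeq2 Wald test (adjusted p = 0.0342) and with limma voom with sample quality weights (adjusted p = 0.0263), so its call in WT depended on the tool.

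In Adn-Lpin1-/- mice, 0 of 10 markers passed in the diet comparison, where 2.46% of genes tested were called. There limma voom and the DESeq2 Wald test on the 20 mice also called 0. The median log2 fold change of the 10 markers was 0.17, against 0.0096 over all genes tested, and 7 estimates were above 0. Rgs5 was the 1 marker with an unadjusted p under 0.05. Adn-Lpin1-/- LFD mice were at 19.3, 16.9, 21.9, 13.2 and 28.8 CPM and Adn-Lpin1-/- HFD mice at 39.7, 31.2, 29.6, 27.7 and 29.5 CPM (log2 fold change 0.65 ± 0.23, adjusted p = 0.147). The genotype and diet comparisons share groups of mice, so their estimates are not independent.

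Pairs of markers were also read within each mouse, as a ratio of CPM that a change in library scaling cannot alter. The pairs were chosen after the values had been seen and were not tested. The ratio of Pdgfrb to Pdgfra, the 2 receptor subunits of platelet-derived growth factor, was 2.04 ± 0.296 in WT against 2.71 ± 0.330 in Adn-Lpin1-/- mice on the LFD, and 2.21 ± 0.336 against 2.79 ± 0.243 for HFD-fed mice. On each diet 3 of 5 Adn-Lpin1-/- mice were above all WT mice. The ratio of Acta2 to Lrat was 0.105 ± 0.0740 and 0.197 ± 0.0594 on the LFD and 0.126 ± 0.0314 and 0.201 ± 0.0832 on the HFD. Here 3 of 5 LFD-fed and 4 of 5 HFD-fed Adn-Lpin1-/- mice were above all WT mice.

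**Figure D3:**
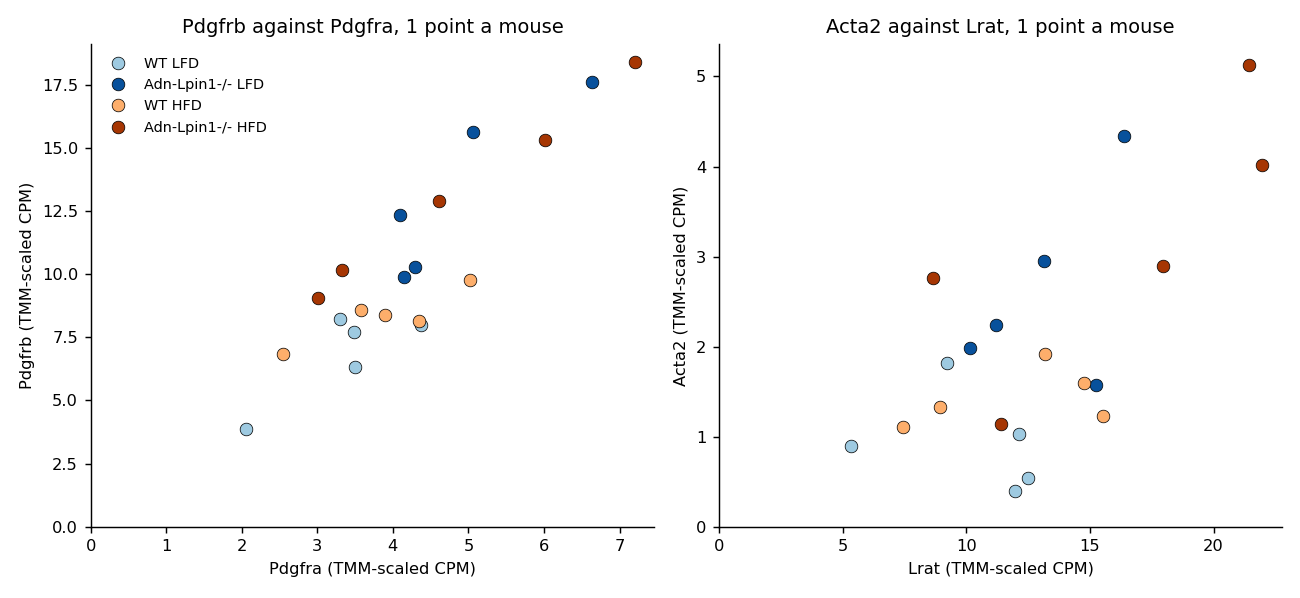
Pdgfrb against Pdgfra (left) and Acta2 against Lrat (right), both axes in TMM-scaled CPM, 1 point a mouse and 5 mice a group. Pdgfrb and Pdgfra climb together over the mice, with the Adn-Lpin1-/- mice towards higher Pdgfrb at a given Pdgfra, while Acta2 is spread more loosely against Lrat.

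The markers varied together between mice of a group to different degrees. Over the 20 mice, with the mean of each group removed, Pearson r of log2 CPM was 0.89 for Pdgfra and Pdgfrb, 0.83 for Pdgfrb and Reln, 0.83 for Pdgfrb and Ngfr, and 0.78 for Lrat and Pdgfra. Acta2 was closest to Tagln (0.69) and had an r of at most 0.43 with each of the other markers. Hand2 was the most separate, from -0.13 with Ngfr to 0.47 with Reln. Both genes of a pair share a library and its depth, so these values describe the spread only.

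**Figure D4:**
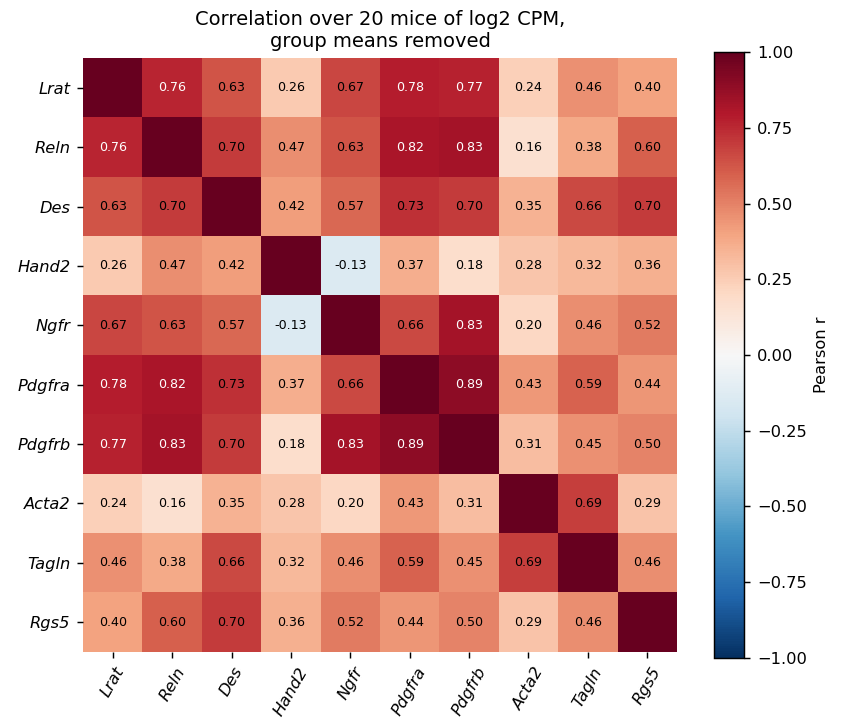
Pearson r of log2 CPM between markers over 20 mice after each group mean was removed, on a colour scale from -1 to 1. Pdgfra, Pdgfrb, Reln and Lrat form the block of high values (0.76 to 0.89), and Hand2 and Acta2 are the pale rows.

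Among all genes tested, those nearest to each marker by the same measure differed between markers. Pdgfrb was nearest to Pam (r = 0.95), Fbn1 (0.95) and Smoc2 (0.95), of which Fbn1 encodes the microfibril protein fibrillin. Pdgfra was nearest to the collagen gene Col1a2 (0.92), Ms4a4d (0.92) and Col6a3 (0.91). Lrat was nearest to Dennd2a (0.91), Sdk2 (0.90) and the laminin gene Lamb1 (0.87), and Reln to Nid1 (0.89), Prelp (0.89) and Col14a1 (0.88). Tagln was nearest to the myosin light chain gene Myl9 (0.84), Gpx3 (0.80) and Pmepa1 (0.80), and Acta2 to Tgfb3 (0.77), Ints12 (0.76) and Ptgis (0.74). Des was nearest to Ntn1 (0.91), Gm13889 (0.90) and Gdf2 (0.88), and Rgs5 to Ptgs1 (0.91), the endothelial factor Erg (0.91) and Vipr1 (0.88). Ngfr was nearest to Calm3 (0.88), Pam (0.87) and Adcyap1r1 (0.86), and Hand2 to Slc3a2 (0.78), Dnaja1 (0.76) and Taf1a (0.75).

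The remaining genes of stellate cell biology were read as lists. In these lists, genes that are neither among those of highest CPM in their list nor called on both diets are named after their values were seen, to account for a count. Across all genes tested, 6.27% were called higher and 8.11% lower on the LFD, and 9.87% higher and 8.78% lower on the HFD. Of 8 tested genes of the activation programme, none fell, while 5 rose in LFD-fed and 3 in HFD-fed Adn-Lpin1-/- mice. The HFD count of 3 ran from 1 to 6 over 11 alternatives. It was 1 with limma voom, the test of the study's methods. It was 6 with limma voom and the pools, which count the same mice again. Without Adn-Lpin1-/- HFD mouse 2 it was 1, and without mouse 1 of that group 0. The LFD count was 3 without WT LFD mouse 3 or Adn-Lpin1-/- LFD mouse 2. Col1a1, the main fibrillar collagen chain, went from 4.64 CPM in WT LFD to 33.6 CPM in Adn-Lpin1-/- LFD and from 6.79 to 32.8 CPM on the HFD in group means (log2 fold change 2.85 ± 0.64 and 2.27 ± 0.62). Col3a1 (1.94 ± 0.47 and 1.60 ± 0.46) and Col1a2 (1.88 ± 0.44 and 1.54 ± 0.44) rose with it. Ccn2, a matrix-associated growth regulator (1.27 ± 0.36), and Loxl1, a collagen and elastin cross-linker (1.56 ± 0.44), rose on the LFD. Fn1, which hepatocytes express strongly, did not pass on either diet. The study singled out Col1a1 in these libraries, so its direction is not independent evidence. The median log2 fold change of the list was 1.41 (LFD) and 1.08 (HFD).

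Retinoid genes followed no common direction. Of 14 tested, 2 fell on the LFD, Dhrs3, a retinal reductase (-0.35 ± 0.07), and Rbp4, the plasma retinol carrier made by hepatocytes (-0.27 ± 0.08), and 12 did not pass. On the HFD, Dhrs3 (-0.23 ± 0.07) and Rdh11 (-0.97 ± 0.24) fell and the receptor Rarg (0.64 ± 0.15) rose. The LFD count of 2 was 1 without WT LFD mouse 1 or 3 or Adn-Lpin1-/- LFD mouse 2, 3 or 5, and the HFD count of 3 was 2 without WT HFD mouse 5 or Adn-Lpin1-/- HFD mouse 1 or 2. Aldh1a1, which makes retinoic acid, did not pass on either diet (0.27 ± 0.20 and 0.28 ± 0.20).

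Of 20 tested genes known as enriched in stellate cells, 4 rose on the LFD, and 1 rose and 2 fell on the HFD, where 9.87% of all genes tested were called higher and 8.78% lower. The LFD count was 2 without Adn-Lpin1-/- LFD mouse 2, and the HFD count of 3 was 2 without WT HFD mouse 1 or Adn-Lpin1-/- HFD mouse 3. Over 11 alternatives the counts ran from 3 to 10 on the LFD and from 2 to 9 on the HFD, both highest with limma voom and the pools. Vim, which encodes the mesenchymal filament vimentin, rose on both (0.97 ± 0.23 and 0.93 ± 0.23). The matrix protein genes Prelp, Olfml3 and Adamtsl2 completed the LFD count, and the angiotensin receptor gene Agtr1a (-0.43 ± 0.11) and Hgf, the hepatocyte growth factor gene (-0.70 ± 0.23), fell on the HFD. Ecm1 did not pass on either diet (0.24 ± 0.14 and 0.02 ± 0.14). Among 8 stellate transcription factors, Tcf21 rose on the LFD (0.67 ± 0.19) and none passed on the HFD (edgeR, 2 at an unadjusted p under 0.05, and 0 called by the DESeq2 Wald test or limma voom). The LFD count of 1 was 0 without WT LFD mouse 3 or Adn-Lpin1-/- LFD mouse 2, and 2 without Adn-Lpin1-/- LFD mouse 5 or Adn-Lpin1-/- HFD mouse 3. Gata4, which restrains stellate cell activation, did not pass (0.10 ± 0.18 and 0.01 ± 0.18).

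Of 16 ligands and partners of the marker receptors, 11 passed the limit on low counts. Of 11 tested, Ntrk2, a neurotrophin receptor (2.30 ± 0.52), and Pdgfb, the ligand of Pdgfrb (0.87 ± 0.29, adjusted p = 0.0499), rose on the LFD. This count of 2 seldom held. It moved in 8 of 11 alternatives, with a range of 1 to 4, and fell to 1 in 17 of 20 fits with a mouse left out. None passed on the HFD (edgeR, 4 at an unadjusted p under 0.05, 1 called by the DESeq2 Wald test and 0 by limma voom), where Ntrk2 had an estimate of 1.33 ± 0.52. Pdgfa, which binds Pdgfra, was at 9.87 to 11.8 CPM in the group means and did not pass.

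Because the markers are shared with other cells, genes of those cells were read beside them. Of 9 tested smooth muscle genes, the tropomyosins Tpm1 and Tpm2 rose on both diets and the other 7 did not pass. With the DESeq2 Wald test 4 were called on each diet and with limma voom 2, and over 11 alternatives the counts ran from 2 to 4 on the LFD and from 1 to 5 on the HFD. The HFD count was 1 without WT HFD mouse 1, 2 or 5 or Adn-Lpin1-/- HFD mouse 1, and 4 without Adn-Lpin1-/- HFD mouse 4. The list, with Cald1 its largest CPM term, summed to 391 ± 30.1 CPM (WT) and 425 ± 31.1 CPM (Adn-Lpin1-/-) on the LFD, against 423 ± 10.1 and 449 ± 14.4 CPM for the same genotypes fed the HFD. Myh11, Cnn1, Actg2 and Lmod1 are the defining contractile genes of smooth muscle, of which only Myh11 passed the limit on low counts. Of 8 tested pericyte genes, Mcam and Heyl rose on the LFD and Mcam and Notch3 on the HFD, where 6.27% and 9.87% of all genes tested were called higher. The LFD count was 0 without Adn-Lpin1-/- LFD mouse 5, and 1 without WT LFD mouse 1 or 4, without Adn-Lpin1-/- LFD mouse 2, or after removal of a GC and length trend. The HFD count was 1 without WT HFD mouse 2, 4 or 5 or Adn-Lpin1-/- HFD mouse 1 or 2. The pericyte list summed to 33.9 ± 7.66, 46.2 ± 8.59, 41.3 ± 3.94 and 49.1 ± 7.50 CPM in the same order, with Abcc9 the largest CPM term, which stellate cells also express.

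Of 7 tested portal fibroblast genes, 4 rose on the LFD and 3 on the HFD, among them Fbln2 (1.97 ± 0.37 and 1.48 ± 0.35), the elastin gene Eln (1.45 ± 0.35 and 1.18 ± 0.34) and Mfap4 (1.62 ± 0.38 and 1.35 ± 0.37). Over 11 alternatives the HFD count ran from 2 to 7, highest with limma voom and the pools. It was 2 with limma voom on the mice alone and without WT HFD mouse 2 or Adn-Lpin1-/- HFD mouse 2. Without Adn-Lpin1-/- HFD mouse 4 it was 6. The portal fibroblast list summed to 11.4 ± 2.07 CPM in WT LFD and 24.4 ± 8.48 CPM in Adn-Lpin1-/- LFD, and 12.3 ± 3.26 and 23.5 ± 8.96 CPM on the HFD. Adn-Lpin1-/- HFD mouse 4, the animal with low Pdgfrb, Acta2 and Tagln, also had the lowest portal fibroblast sum of its group, at 10.98 CPM. Stellate cells and portal fibroblasts both express fibroblast genes of this kind, and the part of portal fibroblasts in the marker changes was not tested.

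Endothelial, macrophage and hepatocyte genes were read in the same way. Median log2 fold changes on the LFD and HFD were 0.54 and 0.64 for endothelial and 0.29 and 0.75 for Kupffer cell genes. For hepatocyte genes they were -0.13 and -0.26, for smooth muscle genes 0.45 and 0.50, and for pericyte genes 0.49 and 0.19. Those of the stellate markers were 0.41 and 0.29, and differences between lists were not tested. Of 10 tested sinusoidal endothelial genes, 4 rose in LFD-fed and 6 in HFD-fed Adn-Lpin1-/- mice. With limma voom the LFD count was 2. These counts were 2 without WT LFD mouse 3 or Adn-Lpin1-/- LFD mouse 2 or 5, and 3 without WT HFD mouse 1, 2 or 5 or Adn-Lpin1-/- HFD mouse 2. The scavenger receptor gene Stab1 rose by 0.59 ± 0.10 and 0.75 ± 0.10 on the log2 scale, and Pecam1 by 0.84 ± 0.21 and 0.65 ± 0.20. Of 6 Kupffer cell genes, none passed on the LFD (edgeR, 0 at an unadjusted p under 0.05, and 0 called by the DESeq2 Wald test or limma voom) and 4 rose on the HFD, among them Clec4f (0.63 ± 0.17). None of these 4 calls was made without Adn-Lpin1-/- HFD mouse 2, which had the highest Kupffer cell sum of its group (313 CPM), and 2 were made without WT HFD mouse 1, 3, 4 or 5 or Adn-Lpin1-/- HFD mouse 1. Of 6 hepatocyte genes, none passed on the LFD (edgeR, 2 at an unadjusted p under 0.05, 0 called by the DESeq2 Wald test and 1 by limma voom), and Alb (-0.34 ± 0.10), Apoa1 (-0.77 ± 0.16) and Cps1 (-0.64 ± 0.19) fell on the HFD. That count was 1 without Adn-Lpin1-/- HFD mouse 1, 2 or 3. The hepatocyte list, with Alb its largest CPM term, summed to 104660 ± 3112 CPM (WT) and 90701 ± 10057 CPM (Adn-Lpin1-/-) on the LFD, against 106473 ± 10391 and 82534 ± 10881 CPM for HFD-fed mice. Since CPM is a share of each library, the part of this fall in the rise of the markers was not tested.

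Tissue adhering to the liver was checked in the same way. None of 3 tested mesothelial genes passed on either diet (edgeR, 2 at an unadjusted p under 0.05 on the LFD and 0 on the HFD, with 1 called on the LFD by the DESeq2 Wald test and 0 by limma voom), and their list summed to 1.52 to 16.0 CPM in Adn-Lpin1-/- LFD, with mouse 2 the highest. In its group, that mouse also had the highest Pdgfrb, Acta2, Tagln, Lrat, Reln, Des and Pdgfra, but not Hand2, Ngfr or Rgs5. Its portal fibroblast sum (38.3 CPM) was also the highest. Without that mouse the changes of Pdgfrb and Acta2 were 0.82 and 1.22 on the log2 scale. Of the adipocyte list only Cfd was tested, and it rose by 3.76 ± 1.18 and 3.81 ± 1.02. The LFD call was lost with limma voom and without WT LFD mouse 1, 2, 3 or 4 or Adn-Lpin1-/- LFD mouse 2 or 5. Adipoq, Lep, Plin1 and Retn, the defining adipocyte genes, had group means of at most 0.908 CPM. The highest of these, Adipoq in WT LFD, came from mouse 1 at 4.32 CPM. None of 4 cholangiocyte genes passed (edgeR, 2 at an unadjusted p under 0.05 on the LFD and 0 on the HFD), although the DESeq2 Wald test and limma voom each called 1 on the LFD.

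**Figure D5:**
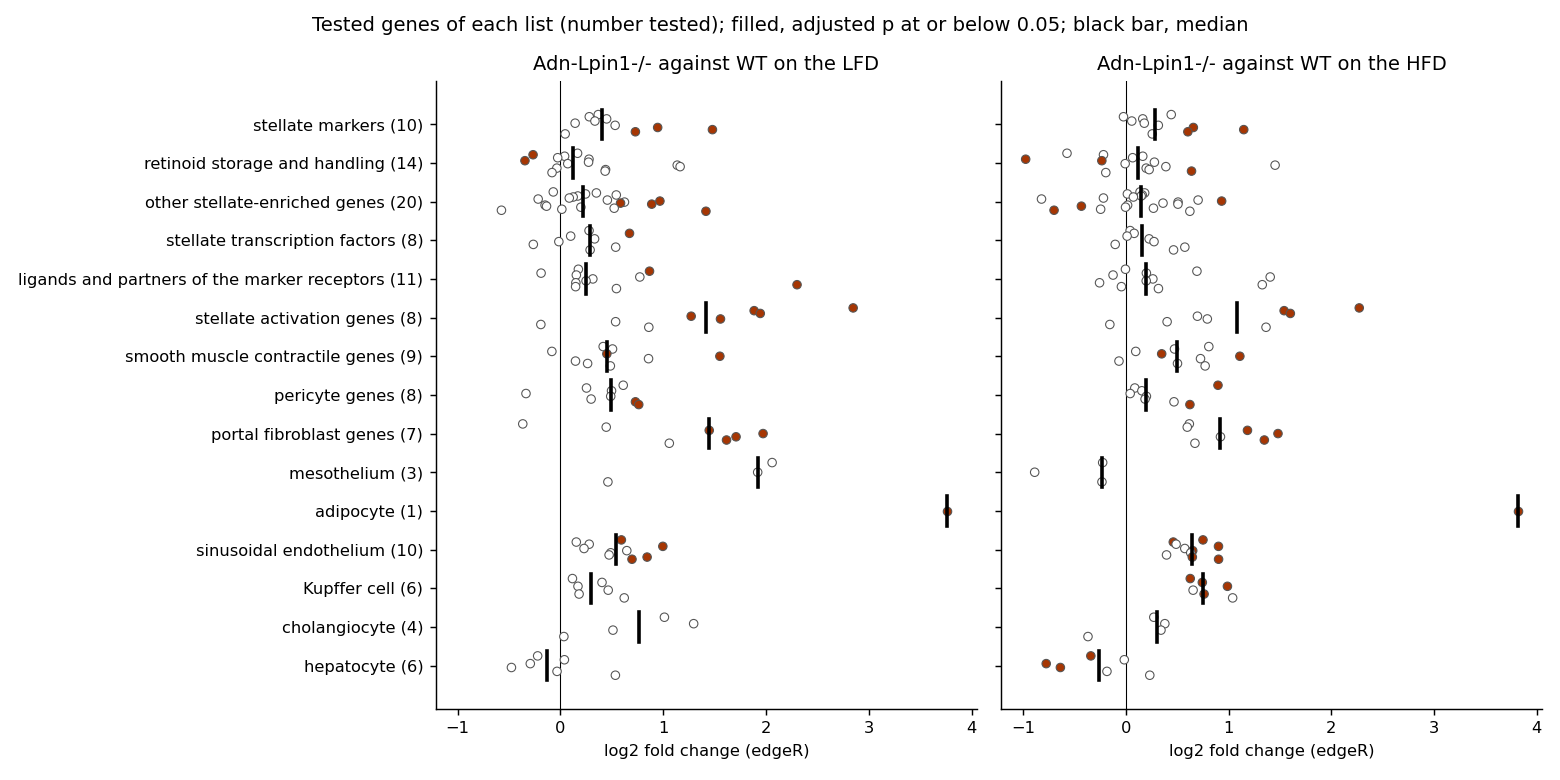
Log2 fold change (horizontal axes) of every tested gene of each list shown (rows, with the number tested) between genotypes on the LFD (left) and the HFD (right), with the median as a black bar and genes at an adjusted p of 0.05 or less filled. The stellate markers have medians of 0.41 and 0.29, the activation genes 1.41 and 1.08 and the portal fibroblast genes 1.45 and 0.92, differences that were not tested.

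The pooled libraries are labelled as mice 1 to 5 of their group, so they read the same animals again and give no separate support. For 36 of 40 pairs of marker and group the pool lay within the range of its mice. The ratio of the Adn-Lpin1-/- pool to the WT pool was 1.85 on the LFD and 1.61 on the HFD for Pdgfrb, 2.96 and 2.17 for Acta2, and 1.70 and 1.63 for Tagln. For Lrat it was 1.46 and 1.26, and for Rgs5 0.849 and 1.14.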

How the data were processed

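RNA of mouse liver was sequenced from 20 mice and 4 pools. Per the labels and the study's methods, the authors aligned reads with STAR (2.5.1a) to GRCm38 and counted them per gene with featureCounts (1.4.6-p5, from Subread), and the tests used these deposited raw counts. The files also hold the authors' CPM and RPKM columns, which are deposited values that were not used. CPM and RPKM printed here were computed from the deposited counts with TMM-scaled library sizes and exon lengths. Symbols from GENCODE M21 matched 40254 of 41388 gene identifiers (97.3%), and 355 ribosomal RNA genes were left out.

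Genes over 1 CPM in at least 4 libraries were fitted over the 4 groups with edgeR's quasi-likelihood test (4.0.16, R 4.3.3), without a pairing term, and called at a Benjamini-Hochberg adjusted p of 0.05 or less. Alternatives used limma (3.58.1) voom with sample quality weights, the study's own test, and DESeq2 (1.42.0). Correlations used log2 CPM with a prior count of 0.5. The markers and gene lists were chosen with earlier results of these data known. The text names all markers, Lpin1 and the 3 genes nearest each marker. Other named genes came from the 3 tested genes of highest CPM in a list and up to 3 called on both diets, with exceptions stated. Not every gene of highest CPM in a list is named. The study gives n = 6 where the files hold 5 mice and a pool in each group. The result of a further gene list is not reported here.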

Additional observations from a re-analysis of the deposited data

Results flagged for a closer look

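Each marker and each list sum was checked in each group of 5 mice for a mouse far from the other 4 (Dixon's criterion). Of 84 such checks 3 stood out, none of them for a marker, and chance alone marks about 1 in 20 groups. The summed mesothelial genes were at 7.83 CPM in WT HFD mouse 4, far above the rest of its group. The summed adipocyte genes were at 36.1 CPM in Adn-Lpin1-/- LFD mouse 5. The summed hepatocyte genes were at 101886 CPM in Adn-Lpin1-/- HFD mouse 4, the mouse with low Pdgfrb, Acta2 and Tagln. The part of these values in the marker changes was not tested.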

How the results depend on the processing

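The LFD count of 3 markers held in all 11 alternatives and was 2 to 3 with a mouse left out. The HFD count ran from 0 to 3 with a mouse left out. It was 2 when only the 2 groups were fitted or after thinning, with Tagln lost, and after removal of a GC and length trend, with Pdgfrb lost. Replicate numbers did not pair the mice (r from -0.415 to 0.281 between same-numbered mice, and 1 of 20 mice closest to its own number). With the replicate number as a block the HFD count was 1, with Acta2 alone passing, and Pdgfrb (adjusted p = 0.0543) and Tagln (adjusted p = 0.0587) lost.

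The pools are labelled as mice 1 to 5 of their group, so alternatives with pools count the same animals again and overstate n. Diet in WT called 1 marker, Reln, with the DESeq2 Wald test, with voom with or without pools, and with the pools as sixth libraries. Diet in Adn-Lpin1-/- called 2, Rgs5 and Ngfr, with voom and pools, and 1, Rgs5, with the pools as sixth libraries in edgeR. Leaving out a mouse kept both diet counts at 0.

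Directions changed only for genes near 0, and the cause was not tested. On the LFD, Ngfr was -0.033 with voom and pools and -0.012 to 0.26 with a mouse left out. Rgs5 on the LFD was -0.028 with voom, -0.078 with voom and pools, -0.0048 with the pools as sixth libraries, and -0.12 to 0.27 with a mouse left out. On the HFD, Reln was 0.0020 after thinning and -0.14 to 0.069 with a mouse left out, and Hand2 was -0.0096 with voom, -0.064 with voom and pools, -0.079 without the GC and length trend, and -0.074 to 0.13 with a mouse left out. Of 713 values under alternatives, 661 kept direction and side of the threshold. These values include markers that were not called and fits without a mouse of neither group compared. The share therefore does not measure how firmly the calls held. On the HFD, the Pdgfrb and Acta2 calls were each lost in 7 fits with a mouse left out, and the Tagln call in 6.

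Over all genes, genotype called 1877 (LFD) and 2434 (HFD), against 4163 and 4740 with voom and pools, and 3008 and 3760 with the pools as sixth libraries. Diet called 144 in WT, against 400 (Wald), 670 (voom), 1938 (voom and pools), 687 (pools as sixth), 72 (only 2 groups) and 90 (block). In Adn-Lpin1-/- it called 321, against 577 (Wald), 2342 (voom and pools), 958 (pools as sixth), 161 (only 2 groups) and 214 (block). With a mouse left out, these totals ran from 55 (without WT HFD 3) to 289 (without WT LFD 5) in WT and from 123 (without Adn-Lpin1-/- LFD 3) to 378 (without Adn-Lpin1-/- LFD 5) in Adn-Lpin1-/-, and genotype called as few as 1210 on the LFD (without WT LFD 3) and 1475 on the HFD (without Adn-Lpin1-/- HFD 2). The interaction called 0, against 30 (Wald), 189 (voom and pools) and 4 (pools as sixth). The other lists were run under the same alternatives, chosen after seeing the data. For these lists, the changes of over 1.5 times with a mouse left out stand beside the counts above 0. Counts of 0 rose to as many as 2 (mesothelium, LFD), 1 (cholangiocyte and hepatocyte, LFD), 3 (ligands, HFD) and 1 (transcription factors, HFD) when a mouse was left out. With the block, endothelial genes called 2 (LFD) and 3 (HFD), activation and pericyte genes 1 (HFD), ligands 1 (LFD) and Cfd was not called (LFD). With voom and pools, retinoid genes called 4 (LFD) and 6 (HFD), transcription factors 4 and 2, pericyte genes 5 and 3, and endothelial genes 6 (LFD). The Wald test called 9 endothelial genes on the HFD. No marker fell under the limit on low counts, and Acta2 rested on 16 to 70 reads in WT LFD.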
